A study of Homo sapiens with 16 samples.

Results

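Of the 58051 genes in the count table, 119 were lower after siRNA against XBP1 and did not fall with MKC8866, a compound that blocks the RNase of IRE1α, the enzyme that splices XBP1 mRNA. These members were chosen by their measured values. The level of a gene was written as the log2 of its CPM (counts per 1000000 counts of the library) plus 0.5, averaged over the 4 libraries of a group. A member had a mean level of at least 2 in siCtrl, a difference of siXBP1 minus siCtrl of at most -0.9, every siXBP1 library below every siCtrl library, and a difference of MKC8866 minus Vehicle from -0.15 to 0.3. Among the 12283 genes with a siCtrl level of at least 2, 176 met the knockdown thresholds, 56 of them lay under the inhibitor window and 1 above it. XBP1 itself and FUCA2, ATP1B3, RRM2 and ANLN were left out by name.

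The cells were LNCaP, an androgen-responsive line from a metastasis of human prostate cancer, at passage 20. In the knockdown experiment they were transfected for 2 days with Allstar control siRNA (siCtrl, 4 libraries) or XBP1-specific siRNA (siXBP1, 4 libraries). In the inhibitor experiment they were given DMSO (Vehicle, 4 libraries) or 10 µM MKC8866 (4 libraries) for 24 h, with no siRNA. The cells of all 16 libraries then had 30 nM thapsigargin, which empties the calcium store of the endoplasmic reticulum, for 3 h, so no library shows unstressed cells. Library totals ran from 28713607 to 34509488 counts. XBP1 lay between 355 and 413 CPM in siCtrl and between 51.6 and 54.8 in siXBP1, and between 481 and 540 in Vehicle and between 537 and 628 with MKC8866. All 12 LNCaP and prostate luminal markers were at a mean level of at least 2. Of 14 basal, stromal, endothelial and immune markers 3 were, and the summed level of these 14 genes was 101 to 113 CPM in siXBP1 and 108 to 118 in siCtrl.

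IRE1α and XBP1 form the most conserved arm of the unfolded protein response. Under stress IRE1α cuts a short intron from XBP1 mRNA, and the spliced message makes XBP1s, a transcription factor for genes of protein folding, secretion and lipid synthesis. A gene that needs XBP1s can therefore be lowered by removing the message or by blocking its splicing. A small interfering RNA acts through an Argonaute protein. Its guide strand directs the cut of a fully matching mRNA, and it is also known to lower other mRNAs whose 3′ UTR pairs with bases 2 to 8 of the guide, the seed.

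The members' 3′ UTRs held a pair of 7-base words of the XBP1 mRNA more often than those of other genes. Of the 119 members, 106 code for protein and have an annotated 3′ UTR of at least 20 bases. Each 7-base word of the XBP1 mRNA was ranked by the share of members' 3′ UTRs that hold it minus the share over all 10809 expressed genes, those with a siCtrl level of at least 2 and such a 3′ UTR. The 5 leading words were GTGTCTA in 58.5% of the members against 9.54% of all expressed genes, TGTCTAA in 50.9% against 12.6%, AGTGTCT in 49.1% against 16.9%, GCCATTA in 34.9% against 9.88%, and CTTTTCT in 59.4% against 35.2%. The next 2 overlap the first by 6 of its 7 bases. GTGTCTA also ranked first and GCCATTA 6th among all 16384 words, whether or not XBP1 holds them. TGTGTCT and GTATTTA, which the XBP1 mRNA does not hold, ranked 4th and 5th, at 53.8% against 24.4% and 52.8% against 24.5%. Among words of its reverse complement TGTCTAA led, followed by TTTAAAT at 66.0% against 41.2% and AAGTGTC at 35.8% against 12.2%. GTGTCTA is called the first word and GCCATTA the second word here. Both were picked on these members, so these shares carry no test.

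Each word occurs 1 time in the XBP1 mRNA. The first word is at chr22:28795176-28795182 (GRCh38, minus strand), in the 3′ UTR of the unspliced transcript form. In the annotated form with the longer reading frame it overlaps the stop codon. The second word is at chr22:28795555-28795561, in the coding sequence of all 4 annotated coding transcripts. Both are shown with 9 bases on either side, the word in capitals, read 5′ to 3′ along the mRNA.
XBP1, first word: agctgattaGTGTCTAaggaatgat
XBP1, second word: aagctggaaGCCATTAatgaactaa

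The members that led the list are shown at the same width because they carry the pattern. Capitals mark the unbroken stretch of identity with the XBP1 mRNA around the word. All lie in the longest annotated 3′ UTR among the coding transcripts of the gene (GENCODE 44).
PPT1, first word, chr1:40073040-40073046, minus strand: cacattagAGTGTCTAAGGActcct
AK4, first word, chr1:65231550-65231556, plus strand: ggttgatatGTGTCTAAttcatttt
SLC25A15, first word, chr13:40812413-40812419, plus strand: gaaaatactGTGTCTAAagaaattt
ZDHHC9, first word, chrX:129804943-129804949, minus strand: gattaaactGTGTCTAAtgcaaact
TMEM14A, first word, chr6:52686261-52686267, plus strand: tcattaaaAGTGTCTAAtgaatcat
NF2, first word, chr22:29698320-29698326, plus strand: ccagctgcAGTGTCTAAGtgttcct
EI24, second word, chr11:125584170-125584176, plus strand: ccctttatAGCCATTActgtcttgt
EMC7, second word, chr15:34084081-34084087, minus strand: atagaaaatGCCATTAATaaattat
PHKB, second word, chr16:47699445-47699451, plus strand: atcaaggcAGCCATTAATatacgaa
Identity beyond the word was short. The longest run was 12 bases, reached by PPT1 at the first word and by TADA1 at the second. Of the 62 members with the first word, 50 matched over at least 8 bases, 23 over at least 9 and 8 over at least 10. Of the 37 with the second word, 29 matched over at least 8 bases and 15 over at least 9. GTGTCTAA, the first word and the base after it, was in 36 members' 3′ UTRs (34.0%) against 2.61% of all expressed genes, and GCCATTAA in 23 (21.7%) against 3.51%.

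Counted together, 88 of the 106 members (83.0%, exact 95% interval 74.5% to 89.6%) held the first or the second word, against 17.7% of all expressed genes. Both words were picked on these members, so the interval is no test of a difference. The first word without the second was in 51, the second without the first in 26 and both in 11. The members' 3′ UTRs were longer, with a median of 2654 bases against 1602. Among 3′ UTRs of 1548 to 4129 bases, the interquartile range of the members, 59.6% of 52 members held the first word against 11.3% of 3932 expressed genes, and 32.7% held the second against 11.7%. Per kilobase of 3′ UTR the first word occurred 0.217 times in members and 0.0481 times in all expressed genes, and the second 0.120 and 0.0492 times. Reversed and complemented, they were in 8.49% and 11.3% of the members' 3′ UTRs and in 7.96% and 9.05% of all. In coding sequence they were in 7.55% and 6.60% of members, against 5.54% and 6.87% of all expressed genes. In the 5′ UTR they were in 3 and 2 members (2.83% and 1.89%, either word 4.72%, exact 95% interval 1.55% to 10.7%), against 0.945% and 1.04% (either word 1.96%).

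**Figure D1:**
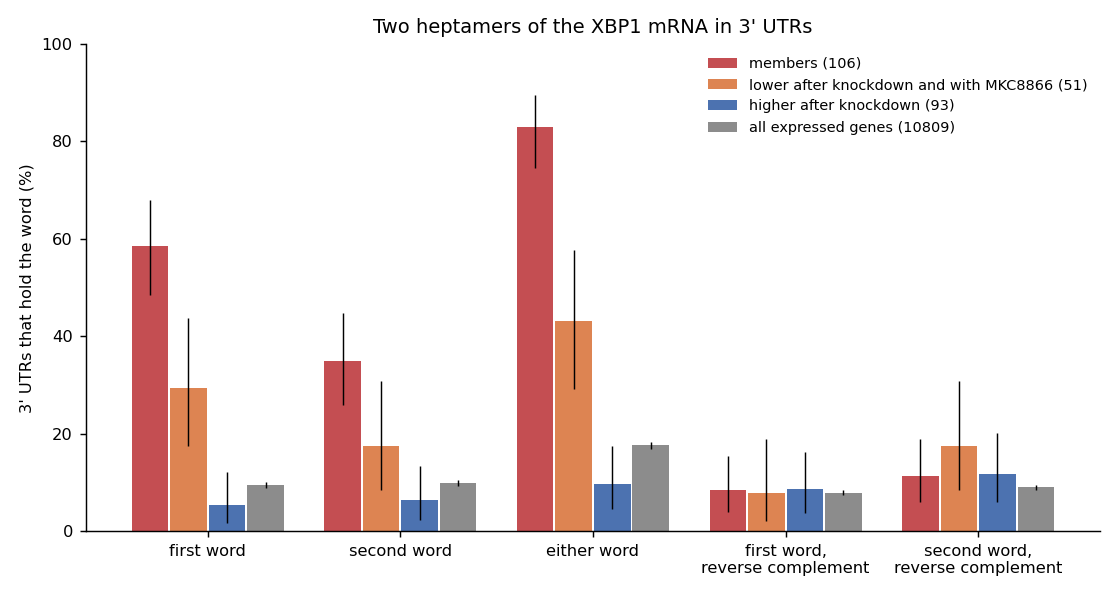
Share of 3′ UTRs (%) that hold each word or its reverse complement, in the members, in genes lower after knockdown and under the inhibitor window, in genes higher after knockdown, and in all expressed genes, with the number of genes in brackets and bars for the exact 95% interval. Members reach 58.5% for the first word and 34.9% for the second, while the reverse complements stay at 8.49% and 11.3%. Both words were picked on the members, so the bars are no test of a difference.

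Other genes chosen on the same knockdown held the words at other rates, given here without a test since members and words were picked together. Of 51 genes with the same fall but a difference with MKC8866 under -0.15, 43.1% held the first or second word. That share was above the 17.7% of all expressed genes that held either word. Of 93 genes higher after knockdown by the mirrored thresholds, 9.68% did. No mature human miRNA of the 2370 in the RefSeq table has bases 2 to 8 that pair with either word in full. The sequence of the siRNA against XBP1 is not given in the sources used here, so whether either word pairs with its seed was not tested.

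The words also went with lower levels among genes that are not members. In the 969 non-member genes with the first word the median difference of siXBP1 minus siCtrl was -0.08 (log2), and in the 1031 with the second word it was -0.08, against 0.04 in the 8880 with neither word. With the base A after the word the medians were -0.13 for 246 genes and -0.13 for 356 genes. With any other base they were -0.07 and -0.05. By edgeR's quasi-likelihood test with Benjamini-Hochberg adjustment, 46.2% of the non-members with the first word, 45.5% of those with the second and 25% of those with neither were called lower after knockdown. In the inhibitor experiment the medians of the same 3 sets were 0.04, 0.03 and 0.02. The sets were not matched for 3′ UTR length, and whether length bears on these differences was not tested. 

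**Figure D2:**
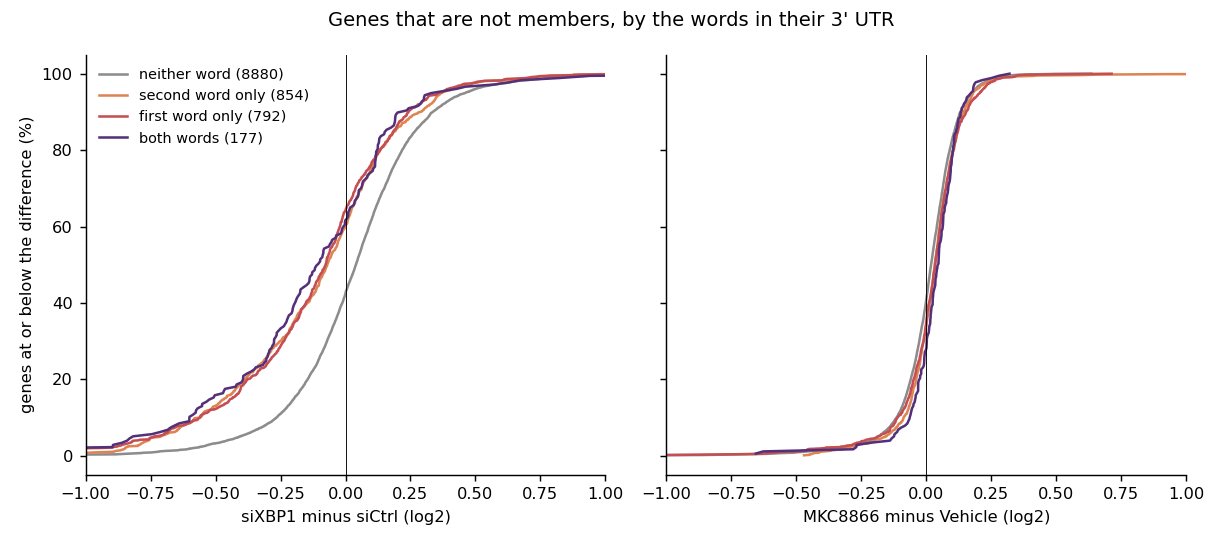
Cumulative share of non-member genes (%) at or below each difference (log2 of CPM plus 0.5) for siXBP1 minus siCtrl, left, and MKC8866 minus Vehicle, right, with 1 line for each combination of words in the 3′ UTR and the number of genes in brackets. Lines of genes with either word lie to the left of the line without them after knockdown, and nearly on it with MKC8866. After knockdown the median was -0.10 with both words and 0.04 with neither. It was -0.08 for all genes with the first word and for all with the second, those with both words counted in each.

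Across the members the differences of siXBP1 minus siCtrl ran from -2.17 to -0.91 with a median of -1.13, that is 1.88-fold to 4.50-fold lower, with a median of 2.19-fold. The differences of MKC8866 minus Vehicle ran from -0.14 to 0.29 with a median of 0.03. These ranges follow from the rule. The 4 siXBP1 libraries behaved alike, with the median member at -1.12, -1.14, -1.11 and -1.09 relative to its siCtrl mean. The 4 Vehicle libraries were at -0.10, -0.09, -0.06 and -0.07, and the 4 MKC8866 libraries at -0.05, -0.05, -0.04 and -0.04. The spread over replicates was small, with a median SD of 0.07 in each group, against 0.07 over all genes at this level in siCtrl, siXBP1 and Vehicle and 0.08 with MKC8866. Per kilobase of exon the members' siCtrl levels ran from 0.414 to 129 CPM.

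**Figure D3:**
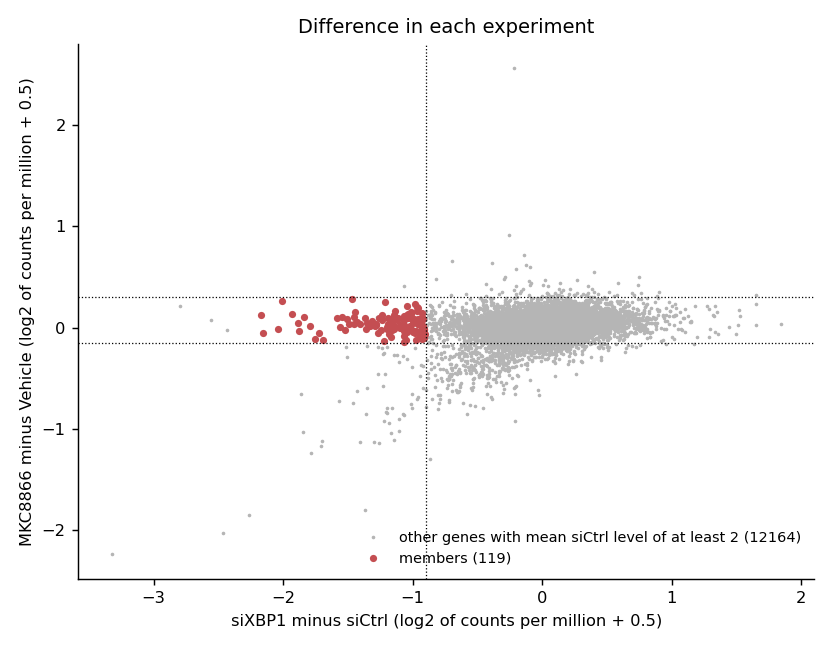
Each point is a gene with a siCtrl level of at least 2, placed by siXBP1 minus siCtrl and MKC8866 minus Vehicle (both log2 of CPM plus 0.5). The 119 members, in red, fill the band between the dotted thresholds at -0.15 and 0.3 to the left of -0.9.

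The largest fall was that of PPT1. PPT1 (chr1:40072705-40097703), a lysosomal thioesterase that removes palmitate from proteins, was at 89.1, 86.8, 91.5 and 90.1 CPM in siCtrl and at 19.5, 20.4, 18.9 and 19.3 in siXBP1. It was at 85.8, 88.3, 87.5 and 87.4 in Vehicle and at 93.3, 98.9, 94.1 and 94.0 with MKC8866. The siXBP1 libraries stood apart from the other 12, 4.50-fold below siCtrl. ZDHHC9, a palmitoyltransferase that adds the same lipid, was at 133, 138, 134 and 138 in siCtrl and 37.5, 35.8, 37.2 and 40.2 in siXBP1. Its Vehicle and MKC8866 means were 116 ± 5.46 and 125 ± 4.59 (SD, n = 4), slightly below siCtrl.

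EI24, an endoplasmic reticulum protein needed for autophagy, was at 169, 164, 189 and 177 CPM in siCtrl against 39.3, 38.0, 40.6 and 37.1 in siXBP1. EMC7, a subunit of the complex that inserts membrane proteins into the endoplasmic reticulum, was at 46.9, 44.7, 45.7 and 50.8 against 13, 14.8, 14.4 and 13.4. Both carry the second word and not the first, and both had Vehicle means close to siCtrl, at 183 ± 6.72 and 48.9 ± 3.95 (SD, n = 4). JPT2 fell 3.47-fold, from 397 ± 23.0 to 114 ± 5.84 (SD, n = 4), and holds neither word. TMEM14A had 18.7 ± 1.61 in siCtrl, 5.19 ± 0.456 in siXBP1 and 23.4 ± 0.862 in Vehicle, the highest of its 4 groups.

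**Figure D4:**
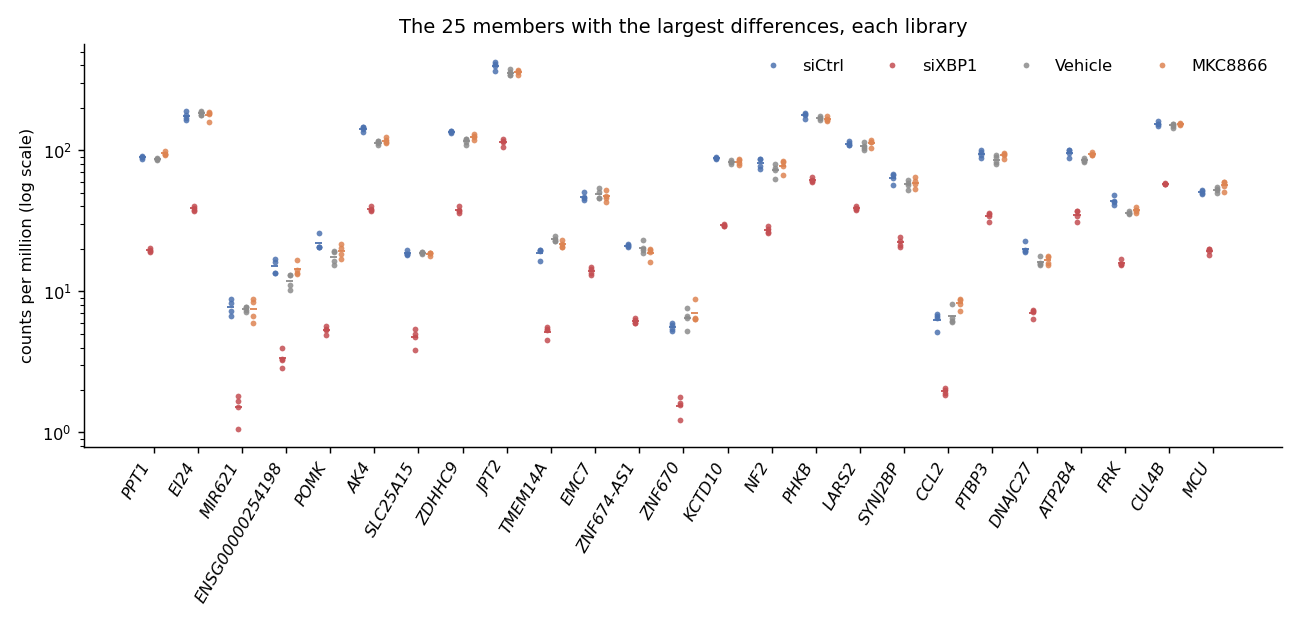
CPM (log scale) of the 25 members with the largest differences, each library a point and each short line a group mean. In all 25 the 4 siXBP1 libraries lie below the other 12, for PPT1 at 18.9 to 20.4 against 85.8 to 98.9.

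The 5 members described next work in mitochondria and were grouped after their values were seen. Other members named below, such as SDHD, PDHX and MTHFD2, work there too. AK4, an adenylate kinase of the matrix, was at 135, 147, 142 and 147 CPM in siCtrl and 37.1, 38.5, 37.7 and 40.2 in siXBP1. SLC25A15, whose site of the first word lies beyond the exons that the authors counted, and which carries ornithine across the inner membrane for the urea cycle, was at 18.5, 18.4, 19.7 and 18.1 against 5.43, 4.73, 4.99 and 3.87. MCU, the pore of the calcium uniporter, was at 49.2, 50.1, 52.1 and 51.6 against 20.1, 19.9, 19.3 and 18. In each the groups do not overlap, and the MKC8866 means of 117, 18.5 and 56.4 lay close to the Vehicle means of 114, 18.9 and 52.6. LARS2, which charges the mitochondrial leucine tRNA, fell from 112 ± 3.48 to 39.0 ± 1.11, and SYNJ2BP, an outer membrane protein, from a mean of 63.7 to 22.3.

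SDHD, a membrane anchor of respiratory complex II, went from 21.1 to 10.7 CPM and PDHX, which ties E3 into pyruvate dehydrogenase, from 148 to 78.1. Of 45 genes of complexes I and II and pyruvate dehydrogenase in the list used here, 6 were called lower and 5 higher after knockdown, SDHD and PDHX among the 6, and the median log2 fold change was 0.02 against 0.00 over all 21021 genes tested. Over all 21021 genes 3836 (18.2%) were called lower and 3475 higher. Among expressed genes 25.2% of the 8898 with neither word were called lower. So were 49.5% of the 1031 with the first word and 47.4% of the 1068 with the second. All 119 members were called lower in this fit, which is the contrast that chose them. NDUFA5 rose from 53.3 to 74.8 CPM, a log2 fold change of 0.45.

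Glycogen metabolism held a pair of members. PHKB, the β subunit that regulates phosphorylase kinase and so glycogen breakdown, was at 182, 168, 185 and 177 CPM in siCtrl and 61.7, 64.5, 59.4 and 60.2 in siXBP1. It has 2 sites of the second word. GBE1, the branching enzyme of glycogen synthesis, went from 51.3 to 27.0 and has 1. Of 20 glycogen genes tested, 9 were called lower after knockdown and 1 higher, where 3836 (18.2%) and 3475 of all 21021 genes were. The median log2 fold change of the 20 was -0.20. GYS1, glycogen synthase, was called lower at -0.52, and EPM2A, a glycogen phosphatase, was the gene called higher, at 0.38.

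On the endosome and lysosome path, RAB7A, the GTPase of late endosomes, was at 296, 301, 307 and 311 CPM in siCtrl and 141, 136, 134 and 135 in siXBP1. SCARB2, the receptor that brings glucocerebrosidase to lysosomes, went from 457 ± 12.8 to 199 ± 7.69 (SD, n = 4). AP3M1, of the AP-3 coat, went from 146 to 64.9, CD164, a sialomucin of lysosomes and the cell surface, from 314 to 152, and SYNJ1, a phosphoinositide phosphatase of endocytosis, from 53.4 to 28.2. All 5 hold the first or second word, in RAB7A at a site beyond the exons that the authors counted. Of this list's 31 genes 15 were called lower and 5 higher after knockdown, where 3836 (18.2%) and 3475 of all 21021 genes were. The median of the list was -0.12. LAMP1 and LAMP2, the main lysosomal membrane proteins, were among the 5 higher at 0.38 and 0.30.

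Signalling and cytoskeletal members included NF2, whose protein merlin restrains growth through the Hippo pathway. It was at 73.2, 87.0, 77.3 and 86.4 CPM in siCtrl and 26.5, 28.9, 26.1 and 27.9 in siXBP1. FRK, a Src-like tyrosine kinase, went from 43.8 to 15.9 and ATP2B4, a calcium pump of the plasma membrane, from 96.1 to 34.9. PTBP3, an RNA-binding splicing regulator, went from 94.7 to 34.2, DNAJC27, a J-domain protein, from 20.1 to 7.03, and ZNF670, a zinc-finger protein, from 5.59 to 1.54. CCL2, a chemokine that draws monocytes, had 6.71, 6.90, 5.14 and 6.47 in siCtrl, 1.99, 1.85, 1.91 and 2.06 in siXBP1, and 8.25 ± 0.694 with MKC8866 (SD, n = 4). It holds neither word and lay nearest the upper limit of the inhibitor window.

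POMK, which phosphorylates the sugar chain of dystroglycan, was at 20.6, 20.7, 20.5 and 25.8 CPM in siCtrl and 5.71, 5.38, 4.92 and 5.34 in siXBP1. DAG1, dystroglycan itself, went from 277 ± 19 to 125 ± 2.98 (SD, n = 4). DAG1 was named after its values were seen. DAG1 holds the first word. POMK has 1 site of the first word and 2 of the second, all beyond the exons that the authors counted. SLC45A3, a prostate-specific transporter and marker of luminal cells, went from 244 ± 16.1 to 109 ± 3.71. Of the 12 luminal markers 8 were called lower after knockdown and 0 higher, where 3836 (18.2%) and 3475 of all 21021 genes were. The median of the 12 was -0.33, with KLK3 at -0.86 and STEAP2 at -0.87. In bulk libraries fewer cells of a type and less RNA per cell cannot be told apart.

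The members in the list of cullins and KCTD proteins were KCTD10, CUL4B and KCTD20. KCTD10, an adaptor that brings substrates to cullin 3, was at 86.6, 88.0, 90.0 and 88.4 CPM in siCtrl and 29.7, 29.3, 30.0 and 29.3 in siXBP1. CUL4B, a scaffold of cullin ligases, was at 155, 150, 154 and 161 against 57.3, 58.9, 58.0 and 57.7 and has 3 sites of the first word. The CUL4B site at chrX:120516120-120516126 lies beyond the exons that the authors counted. KCTD20 went from 147 to 74.3. Of the 26 genes of this list 10 were called lower and 7 higher after knockdown, with a median of -0.01. EIF3D, the cap-binding subunit of the initiation factor eIF3, went from 226 ± 3.27 to 92.5 ± 1.92 (SD, n = 4). Of 13 eIF3 subunits 4 were called lower and 0 higher, with a median of -0.07, and the other 3 lower subunits were at -0.14 to -0.23. GPAT4, which makes lysophosphatidic acid, went from 92.9 to 40.4. Of 15 acyltransferases tested 5 were called lower and 3 higher, with a median of 0.02. Beside these lists, 3836 (18.2%) of all 21021 genes were called lower after knockdown and 3475 higher.

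The 94 members after the leading 25 differed by -1.36 to -0.91 on the log2 scale, and some of these were picked for description after their values were seen. Metabolic genes among them were MTHFD2, a mitochondrial enzyme of folate metabolism, which went from 259 ± 8.47 to 129 ± 4.63 CPM (SD, n = 4), and PFKFB2, which makes a sugar phosphate that regulates glycolysis, from 130 to 64.5 with 3 sites of the first word. UAP1, which makes UDP-N-acetylglucosamine, went from 235 to 125, and POGLUT1, which adds glucose to Notch, from 23.8 to 11.6. PIGP, of the first step of GPI-anchor synthesis, went from 34.8 to 15.1, and ACER2, a ceramidase of the Golgi, from 20.6 to 10.6. Cell cycle and chromatin genes were CBX5, the heterochromatin protein HP1α, at 280 ± 32.3 against 132 ± 4.59 (SD, n = 4), PKMYT1, a kinase that holds back CDK1, at 50.8 against 25.8, and CCNT1, the cyclin of the elongation factor P-TEFb, at 115 against 58.2. RIT1, a Ras-related GTPase, went from 67.5 to 26.6, LIMK2, a kinase of cofilin, from 114 to 57.8, and PARK7, a protein of the defence against oxidants, from 159 to 84.7.

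Close relatives of the members went both ways. In 12 small families with a member, 20 relatives that are not members were tested. After knockdown 7 were called lower and 5 higher, where 3836 (18.2%) and 3475 of all 21021 genes tested were, and 8 were not called. Of the 20, 5 hold the first or second word, against 10 of the 12 members and 17.7% of all expressed genes. Both words were picked on the members, so this contrast carries no test. NONO, an RNA-binding protein of nuclear paraspeckles, went from 685 ± 17.4 to 299 ± 8.26 CPM (SD, n = 4), and its partners SFPQ and PSPC1 rose from 434 to 564 and from 68.3 to 90.7, at log2 fold changes of 0.34 and 0.37 (edgeR adjusted p = 1.02e-06 and 2.89e-06). SFPQ has 1 site of the first word. CUL4A went from 153 to 130, at -0.27 (edgeR adjusted p = 1.04e-05), and has 1 site of the first word.

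Other families differed in the same contrast. ARPP19, an inhibitor of the phosphatase PP2A in mitosis, went from 249 to 104 CPM, and ENSA, its relative with the same task, from 240 to 247, at a log2 fold change of 0.01 (edgeR adjusted p = 0.885). BZW2 went from 80.0 to 41.9 and BZW1 from 250 to 263 (edgeR adjusted p = 0.524). ATL3, which shapes the endoplasmic reticulum, went from 135 to 55.6 and ATL2 from 41.5 to 25.9, at -0.72 (edgeR adjusted p = 1.11e-09). ATL2 has 1 site of the second word. CAPZA2, a subunit of the actin capping protein, went from 106 to 49.3 and CAPZA1 from 226 to 200, at -0.22 (edgeR adjusted p = 1.40e-04). Neither holds a word. DNAJA2, a co-chaperone of HSP70, went from 138 to 65.7, SERINC1 from 162 to 82.2 and PPM1F, a phosphatase, from 31.2 to 13.9, while DNAJA1, SERINC2 and PPM1E were not called, at log2 fold changes of -0.01, 0.12 and 0.03. Other relatives in these families were called, DNAJA3 at -0.14, SERINC5 at -0.33, SERINC3 at 0.20 and DNAJA4, at under 1 CPM, at 1.31. RAB7B, a relative of RAB7A at 0.183 CPM in siCtrl, was at -1.27 and not called (edgeR adjusted p = 0.195).

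The 18 coding members with neither word had a median difference of -1.08, against -1.17 in the 62 with the first word and -1.07 in the 37 with the second. Among them were JPT2, LARS2, CCL2, TCF3, C4orf46, MBP, CAPZA2, SLC35F5, DNAJA2, DCP1A, HPCAL1, POM121, CCDC141, BIRC3, RNF144B, TMEM237 and TAP2. Their 3′ UTRs were no shorter, with a median of 3290 bases. Of the 22 coding genes among the 25 largest falls 16 held the first word, 7 the second and 3 neither.

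The other 13 members were 6 long non-coding RNAs, 6 processed pseudogenes and 1 miRNA gene. MIR621 (chr13:40810766-40810861) was at 8.32, 6.64, 8.87 and 7.22 CPM in siCtrl and 1.67, 1.52, 1.06 and 1.81 in siXBP1. All its 96 bases lie in the 3′ UTR of SLC25A15 as GENCODE 44 draws it, on the same strand, so its reads cannot be told apart from those of that member. The pseudogene ENSG00000254198 (15.1 and 3.36 CPM in siCtrl and siXBP1) likewise lies with all 403 bases in the 3′ UTR of POMK, on the opposite strand, and the counting did not use strand. ENSG00000228343 lies antisense in the 3′ UTR of RBM3, which is no member and was at 222 and 193. AK4P1 is a processed copy of AK4. The counting left out reads with several matches, and whether other reads of AK4 reached AK4P1 was not tested. ZNF674-AS1, a long non-coding RNA, went from 21.1 to 6.17, and all 3 of its annotated transcripts hold both words. Of the other 5 long non-coding RNAs, ENSG00000228343, ENSG00000264956 and LINC01291 hold neither word. LINC00665 has the first word in 1 and the second in 12 of 35 transcripts, and MOCS2-DT has the first in 6 of 10.

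Overlap with other genes was counted for the members only, so no share over all genes can be set beside these counts. Of the 119 members 39 shared exon bases with another gene of the table and 16 over more than 10% of their own. POM121 and POM121C, near-identical nuclear pore genes, were both members at 118 and 100 CPM in siCtrl and 59.3 and 52.0 in siXBP1. The counting left out reads with several matches, and whether the remaining reads went to the right gene was not tested.

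The thresholds cut through a continuous range. Just inside the fall of -0.9 were PARK7 at -0.907, AK4P1 at -0.911 and GBE1 at -0.912, and just outside were FAM104A at -0.895 and ZNF548 at -0.894. At the lower inhibitor limit ABT1 (-0.142), CCNG2 (-0.127) and ZNF674-AS1 (-0.124) were inside, and RNF4 (-0.176), MCUR1 (-0.187) and PRNP (-0.190) outside. At the upper limit CCL2 (0.288), ENSG00000254198 (0.264) and MSI1 (0.256) were inside and MAF (0.409) was the gene outside. At the level of 2 in siCtrl ENSG00000227934 (2.049), ANKRD33B (2.183) and NAP1L3 (2.200) were inside, and ENSG00000213062 (1.761), C8orf34-AS1 (1.511) and UBE2L6 (1.429) outside.

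The Vehicle libraries, which had no siRNA, give a second control for siXBP1, although transfection and experiment cannot be told apart there and both sets of libraries entered the rule. All 119 members were called lower in siXBP1 than in Vehicle by edgeR, against 17% of 20997 genes, with a median log2 fold change of -1.10 against 0.00. In all 119 every siXBP1 library lay below every Vehicle library, as in 22.9% of the 12283 genes at this level. Against siCtrl that share was 22%, and the rule required it of members. EI24 had -2.25 (SE 0.044), PPT1 -2.17 (SE 0.048) and AK4 -1.57 (SE 0.045). The smallest difference in level was -0.59.

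Between the controls themselves the members sat a little higher in siCtrl. Of 119, 42 were called higher in siCtrl than in Vehicle and 5 lower, against 7.66% and 6.34% of 21092 genes, with a median log2 fold change of 0.11 against -0.01. The siCtrl libraries entered the rule, which favours genes that are high in them, so this share is a description. The largest of these differences in level were PPM1F at a log2 fold change of 0.47 (SE 0.059), CCDC141 at 0.42 (SE 0.090) and ENSG00000238084, a pseudogene with 5.02 CPM in siCtrl, at 0.42. That of ENSG00000238084 was no longer called without siCtrl library 2, 3 or 4 or Vehicle library 2 or 4. The 5 lower in siCtrl were TMEM14A, GCSHP5, LRRC8B, POM121 and POM121C.

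**Figure D5:**
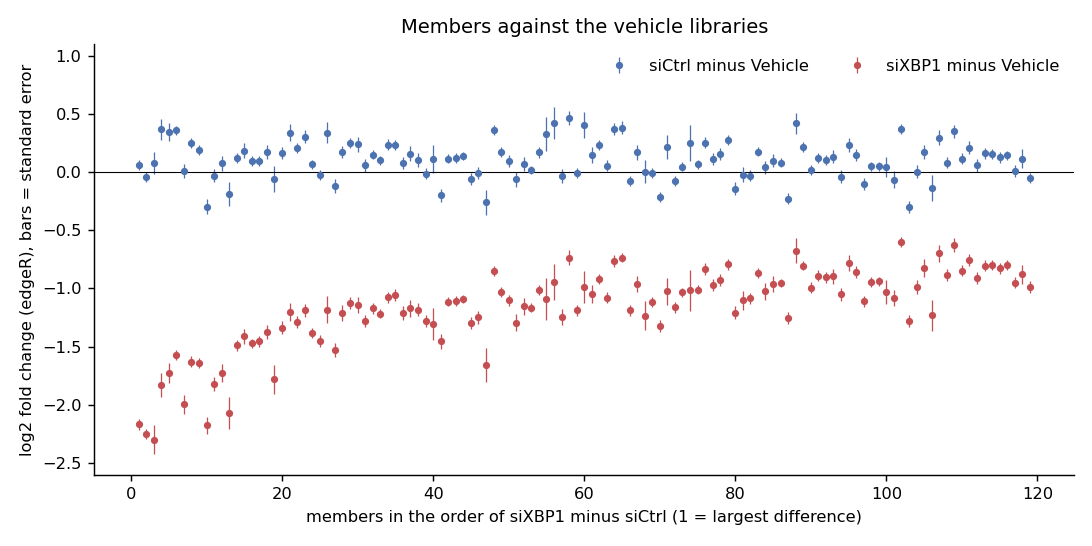
Log2 fold changes by edgeR with their standard errors for each member against Vehicle, in the order of siXBP1 minus siCtrl. The values for siCtrl scatter around a median of 0.11, and those for siXBP1 have a median of -1.10.

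With MKC8866 the rule itself kept the members near zero, so counts here are a description. By edgeR 0 members were called lower and 2 higher, PPP2R3A and BIRC3, where 3.11% and 1.36% of 21045 genes were. At an unadjusted p under 0.05 there were 7 lower and 13 higher, where 8% and 7.22% of all genes were, and DESeq2 called 2 lower and 4 higher, where 4.95% and 2.48% of its 14517 genes with an adjusted p were. With the replicate number as a block 6 members were called lower and 19 higher, where 7.05% and 6% of all genes were. In 14 members the MKC8866 and Vehicle libraries did not overlap, as in 14.2% of the 12283 genes at this level.

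Further lists covered XBP1s targets and the responses to small and double-stranded RNA. None of 20 XBP1s target genes was a member, which follows from the inhibitor window, since all 20 were called lower with MKC8866. By edgeR 19 of them were called lower and 1 higher after knockdown and 20 lower with MKC8866, with medians of -1.09 and -0.70. Over all 21021 genes 3836 (18.2%) were called lower and 3475 higher after knockdown. With MKC8866 3.11% of 21045 were called lower and 1.36% higher. Of 13 genes of the RNA interference machinery 2 were called lower and 3 higher after knockdown, with a median of 0.06. Of 23 genes of the response to double-stranded RNA and interferon 16 were called lower and 0 higher after knockdown, with a median of -0.38, and 0 in either direction with MKC8866. With the replicate number as a block 1 of them was called lower and 2 higher with MKC8866. OAS3, which makes 2-5A on binding double-stranded RNA, is the member among them and went from 63.2 ± 5.20 to 26.5 ± 0.936 CPM (SD, n = 4). It has 1 site of the first word.

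The members' promoters were searched for motifs that XBP1s is known to bind. Of the 119 members 98 had a promoter in the RefSeq table (GRCh38.p14, 250 bases before to 50 after the start, both strands searched). CCACGT was in 9 of them (9.18%), against 13% of 9296 expressed genes and 9.91% of all 27305 promoters. It was in 17 of 44 promoters (38.6%) of the genes that fell after knockdown and lay under the inhibitor window. That window keeps genes lowered with MKC8866 out of the members, so the contrast with these promoters carries no test. GCCACG was in 25.5% of the members' promoters and 22.2% of expressed genes', TGACGTGG in 2.04% and 0.957%, and CCAAT followed after 9 bases by CCACG in 0 and 0.151%. GCCACG and CCACGT overlap by 5 bases, and a match is a description of letters, not of binding.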

How the data were processed

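LNCaP RNA was sequenced as 150 bp read pairs from TruSeq libraries. Per the labels and methods the authors aligned reads with STAR 2.5.2a to hg38 and counted them per gene with featureCounts 1.5.0 on Ensembl 85 without a strand option, leaving out reads with several matches. The deposited values are raw counts, with exon length (other) beside them. Levels were counts per 1000000 of the column total. Fold changes came from edgeR 4.0.16 (TMM, quasi-likelihood, Benjamini-Hochberg threshold 0.05, a gene kept where both groups held a library above 5 counts, each comparison fitted on its own 8 libraries). DESeq2 1.42.0, other scaling, other filters, the replicate number as a block and each left-out library were alternatives. The members and gene lists were chosen with earlier results of these data known. Named genes were the 25 largest falls, listed genes with their relatives, the genes next to each threshold, the 3 largest differences between controls and holders of the printed words. Some genes are not reported here. Of 58051 gene IDs 56948 matched a symbol. 3′ UTRs came from GENCODE 44 on the same assembly, for each gene the longest among its coding transcripts. The study calls the libraries of a group independent samples, but the labels do not say that they were separate cultures, so p-values measure the spread between these samples. Same-numbered Vehicle and MKC8866 libraries deviated together (r = 0.239, 0.434, 0.137 and 0.264 across 13500 genes) and siCtrl and siXBP1 libraries did not (r = 0.00129 to 0.0806). Intervals cover counting error only. Both the fits and the word ranking were tested on simulated data.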

Additional observations from a re-analysis of the deposited data

Results flagged for a closer look

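In the 192 groups of 4 libraries of 48 named members, 1 library stood far from the other 3 in 9 groups, by a gap above the 95% critical value of Dixon's ratio. Chance gives about 1 in 20 such groups. POMK in siCtrl library 4 had 25.8 CPM (counts per 1000000) against 20.5 to 20.7 (gap 0.958 of the range), and ZNF670 in MKC8866 library 2 had 8.77 against 6.37 to 6.49 (0.943). SLC45A3 was low in siCtrl library 1 at 220 against 250 to 254 (0.898). TMEM14A was low in siCtrl library 2 at 16.3 against 19.2 to 19.7 (0.870). FRK was high in siXBP1 library 4 at 17 against 15.5 to 15.7 (0.850). PDHX was low in Vehicle library 3 at 130 against 137 to 138 (0.874). With MKC8866, PPT1 was high in library 2 at 98.9 against 93.3 to 94.1 (0.863), SLC25A15 low in library 2 at 17.8 against 18.6 to 18.8 (0.861), and AP3M1 low in library 1 at 126 against 131 (0.871).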

How the results depend on the processing

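The number of members was 119 as reported, 127 with TMM library sizes (118 shared), 114 with a pseudocount of 1, 167 at a fall of -0.8, 85 at -1.0, 108 with an inhibitor window up to 0.15 and 102 at a siCtrl level of at least 4. Leaving out each library in turn gave 114 to 127. All 119 were called lower in siXBP1 than in siCtrl and than in Vehicle under every fit run, the replicate block and each left-out library (119 to 119) included. Members called with MKC8866 moved most. Lower calls were 0, 2 by DESeq2, 6 with the replicate block and 0 to 3 without 1 library. Higher calls were 2, 4 by DESeq2, 1 with DESeq2-type size factors, 19 with the replicate block and 0 to 5 without 1 library. Higher calls in siCtrl against Vehicle were 35 to 43 and lower calls 4 to 6 without 1 library, and the replicate block gave 40 and 5. The block changed no call of the leading members against Vehicle, of the 3 genes named between controls, or of SFPQ, PSPC1, CUL4A, ATL2 and CAPZA1 after knockdown. With the block 5 eIF3 subunits were called lower and 1 higher after knockdown, and the other gene lists kept their counts there. With MKC8866 it gave 1 lower and 2 higher among the 23 genes of the response to double-stranded RNA and interferon. The share of members' 3′ UTRs with the first word was 84.9% for its first 6 bases and 78.3% for its last 6 (42.4% and 33.0% of all expressed genes). At a fall of at most -1.0 the share was 64.0%, against 9.54% of all expressed genes. Within the members' interquartile length, a setting chosen after seeing the data, the share was 59.6% against 11.3%. Over all annotated 3′ UTRs of a gene the share was 60.4%, with no share over all genes given beside it here. Fewer bases match by chance more often, and 8 of the sites printed or counted lay outside the exons counted by the authors. The second word, too, was picked after seeing the data. CCACGT was in 10.6% of promoters at a fall of at most -1.0.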
